A study of Mus musculus with 22 samples.

Results

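The genes described here are 10 Wnt ligand genes, Wnt2, Wnt2b, Wnt4, Wnt5a, Wnt5b, Wnt6, Wnt7b, Wnt9a, Wnt10a and Wnt11, taken by symbol from a count table of 26202 symbols that holds 19 Wnt genes. RNA was measured by sequencing in 18 libraries of embryonic mouse trachea. At E11.5 whole tracheas came from Wnt5a f/f controls (5 libraries) and from Dermo1Cre;Wnt5a f/f mutants (4 libraries), with 5 tracheas pooled in each sample. Dermo1Cre is a recombinase of the mesenchyme, so the floxed allele is left intact in the epithelium. At E13.5 control tracheas with the gamma SMA eGFP reporter of smooth muscle were sorted into epithelium (EpCAM positive), muscle (GFP positive) and chondroblasts (negative for both), with 2 libraries each, and chondroblasts of Notum 150/150; gamma SMA eGFP mutants gave 3 libraries. The labels give 2 genotypes for the sorted controls, Bmp4 f/f; gamma SMA eGFP and Notum 300/300; gamma SMA eGFP, and no column could be tied to either. For sorted cells, the paper describes pooling 5 tracheas per litter for each sample. Column names of sorted cells carry 1 of 2 dates. Each control population has a library of each date, and the 3 Notum mutant libraries are all of the later date.

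Wnt ligands are secreted glycoproteins that carry a lipid on a conserved serine. Porcn attaches the lipid, Wls carries the loaded ligand to the cell surface, and Notum is a secreted enzyme that removes the lipid and so inactivates the ligand. Some ligands, such as Wnt2, Wnt2b and Wnt7b, are best known for signaling through β-catenin, and others, such as Wnt5a and Wnt11, for β-catenin-independent signaling through receptors such as Ror1 and Ror2. In the developing airway, Wnt7b is known as a ligand of the epithelium, and Wnt2, Wnt2b and Wnt5a as ligands of the mesenchyme.

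The stretch of coding sequence around the serine that Porcn loads and Notum clears is shown because it is what the members share at the site of the enzyme mutated in this study. The serine codon is in capitals, and each run is 24 bases long. It is given for the 7 members with an entry in the RefSeq sequence tables, as read from GENCODE M21 transcripts.
Wnt2: tgtcatggtgtgAGTggctcctgt
Wnt2b: tgtcacggtgtgAGTggctcctgt
Wnt4: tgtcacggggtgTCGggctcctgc
Wnt5b: tgtcacggagtcTCCgggtcctgc
Wnt6: tgccatgggcttTCGggttcctgc
Wnt9a: tgccatggtgtgTCTggctcctgc
Wnt11: tgccatggggtgTCTggctcctgc

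Wnt5a, Wnt7b and Wnt10a are named only. Of the 24 positions, 14 held the same base in all 7 genes, and pairs of genes shared between 14 and 23 bases. The pairs that shared 23 were Wnt2 with Wnt2b and Wnt9a with Wnt11. The serine was written as AGT in Wnt2 and Wnt2b and as a codon beginning with TC in the other 5 genes. On mm10 the stretch lies at chr6:18008792-18008815 on the minus strand in exon 4 of 5 for Wnt2, at chr3:104951220-104951243 on the minus strand in exon 4 of 5 for Wnt2b, and at chr4:137296345-137296368 on the plus strand in exon 5 of 5 for Wnt4. It lies at chr6:119433800-119433823 on the minus strand in exon 5 of 5 for Wnt5b, at chr1:74784172-74784195 on the plus strand in exon 4 of 4 for Wnt6, at chr11:59330926-59330949 on the plus strand in exon 4 of 4 for Wnt9a, and at chr7:98850260-98850283 on the plus strand in exon 6 of 7 for Wnt11. Wnt6 and Wnt10a are neighbours on the plus strand of chromosome 1, at chr1:74771892-74785322 and chr1:74791516-74804179. Wnt5a spans chr14:28504750-28527448 on the plus strand and Wnt7b spans chr15:85535437-85582473 on the minus strand. A gene on the opposite strand overlaps Wnt5a, Wnt5b, Wnt6, Wnt7b and Wnt11, and with these libraries, whose kit does not mark strand, reads of such partners cannot be told apart.

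Total counts ran from 6880665 in control E at E11.5 to 21678194 in the earlier chondroblast library. Levels are given as CPM, counts scaled to the library total and by TMM factors over the 18 libraries, and 3 counts amount to 0.436 CPM in the smallest library before this scaling. The sorted populations carried the markers of their labels. Epithelial markers summed to 2768 to 3260 CPM in epithelium and to at most 45.3 CPM in the other sorted control libraries, smooth muscle markers to 11036 to 14164 CPM in muscle, and cartilage markers to 2540 to 2757 CPM in control chondroblasts, although muscle also held 929 to 1920 CPM of cartilage markers. In chondroblasts Matn1, a marker of mature cartilage, was at 9.96 CPM in the earlier library and at 0 in the later one. Libraries that stood apart included the earlier chondroblast control, with 36278 CPM of blood and immune markers against 5213 CPM in the later control, and the earlier muscle library, with 617 CPM of skeletal muscle markers against 37.0 CPM in the later one. The later muscle held 2412 CPM of blood and immune and 103 CPM of neural markers, against 3.51 and 11.8 CPM in the earlier one. The later epithelium held 37.8 CPM of lung mesenchyme and bud tip markers, against 2.92 CPM in the earlier one. The names of 2 columns do not spell out the gate in full. That of the earlier epithelium shows no clear minus for GFP, and this library held 2768 CPM of epithelial and 15.9 CPM of smooth muscle markers, near the 3260 and 20.8 CPM of the later one. That of Notum mutant C also shows no clear minus for GFP, and its smooth muscle markers summed to 114.2 CPM, where mutants A and B held 113.9 and 80.4 CPM and muscle at least 11036 CPM. The names of Notum mutants B and C carry the same number, and whether they came from separate litters or embryos is not given in the sources used here. Without the earlier epithelium 2 members passed between epithelium and chondroblasts (7.54% of all genes) and 3 between epithelium and muscle (8.62%), and without Notum mutant C 0 members and 0 genes passed in edgeR. In bulk samples, fewer cells of a type and less RNA per cell cannot be told apart.

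The targeted genes were read first. Wnt5a measured 88.0, 159, 84.2, 89.6 and 62.5 CPM in the E11.5 controls, from A to E, and 46.3, 77.9, 87.7 and 126 CPM in the libraries labelled Wnt5a mutant A to D. The groups overlapped, and the log2 fold change of −0.20 (SE, the standard error, 0.30) did not pass the quasi-likelihood test of edgeR (adjusted p = 1.0, by Benjamini and Hochberg over all genes tested). These are counts over the whole gene, and the sources used here do not tie them to the floxed exon, so they neither show nor refute the deletion. Notum measured 13.7 and 86.0 CPM in the earlier and later control chondroblasts and 33.3, 35.3 and 13.7 CPM in the libraries labelled Notum mutant A to C, between the levels of the controls or level with the lower one. Each of these mutant libraries is of the later date and lay below the 86.0 CPM of the later control, the only chondroblast control of that date.

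**Figure D1:**
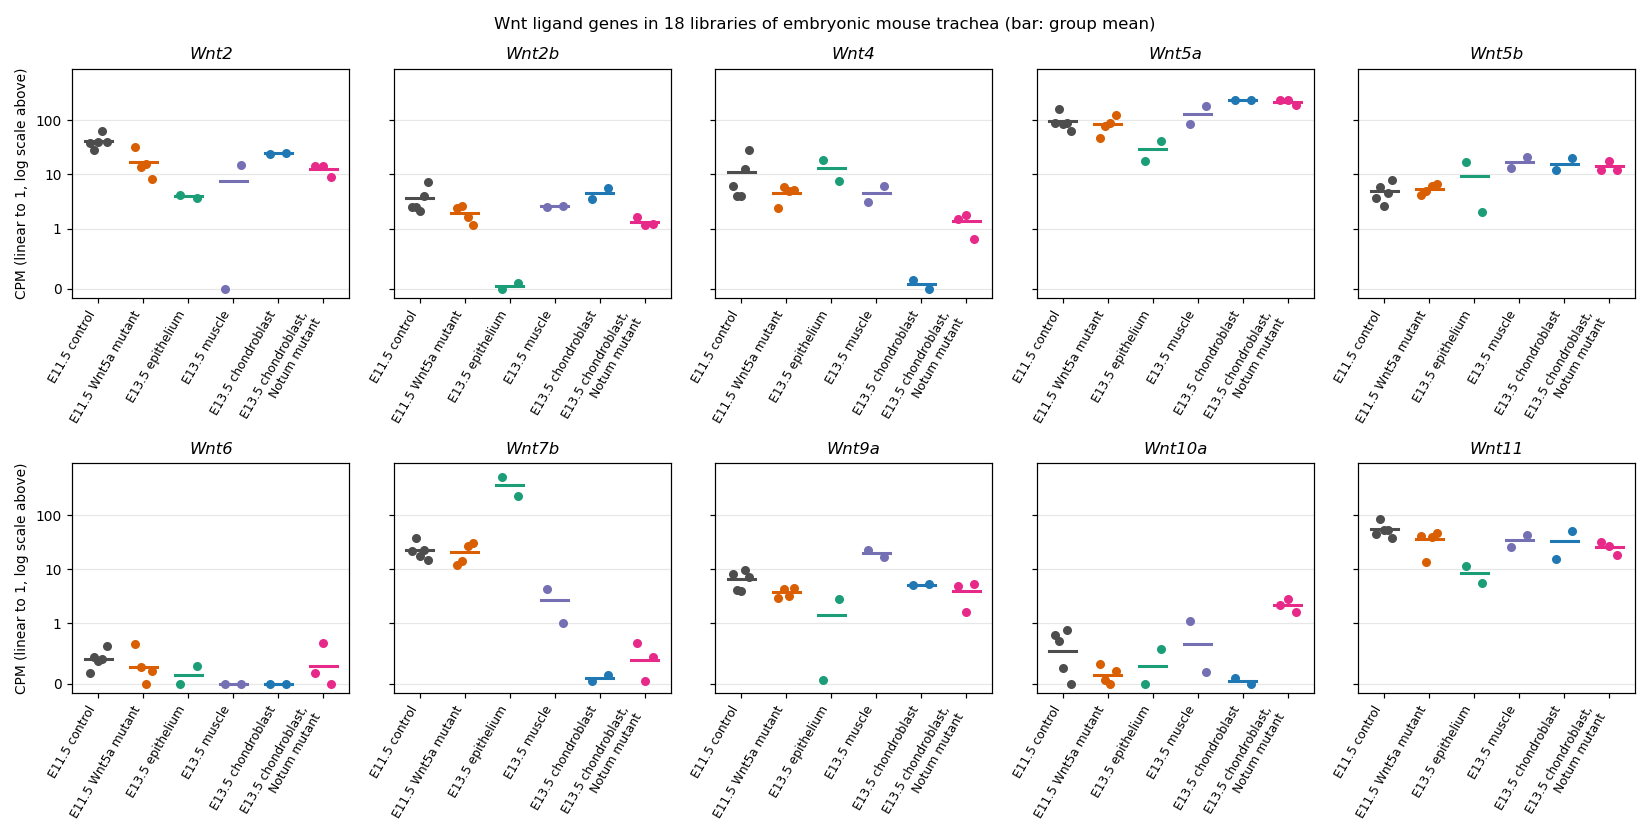
Level of each Wnt ligand gene in CPM (linear up to 1 and logarithmic above it) in 18 libraries, one point per library and one bar per group mean. Wnt7b is highest in the epithelium at 222 and 508 CPM, Wnt5a is highest in chondroblasts at 235 and 236 CPM, and Wnt6 stays under 1 CPM in every library.

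The plot of levels shows how high each ligand gene was in each sorted population at E13.5. Of the 10 members, 6 reached 1 CPM, in over 50% of the libraries, in epithelium and in control chondroblasts, 7 in muscle, and 8 in each of the E11.5 groups and in Notum mutant chondroblasts. None of the other 9 Wnt genes of the table (Wnt1, Wnt3, Wnt3a, Wnt7a, Wnt8a, Wnt8b, Wnt9b, Wnt10b and Wnt16) did so in any group. Among these 9 genes, 3 of 162 values were at or over 1 CPM, the highest being 2.82 CPM for Wnt8b in control E at E11.5, and in the sorted cells none went over 0.819 CPM.

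Levels of different genes were compared per kilobase of the longest coding transcript of GENCODE M21. On this scale Wnt7b made up 83.2% and 88.7% of the summed level of the 10 members in the earlier and later epithelium. Wnt5a led in chondroblasts, with 59.5% and 47.2% in the earlier and later controls and 57.6%, 58.2% and 60.9% in the Notum mutants. Wnt5a also led in muscle, with 33.9% in the earlier and 42.0% in the later library. At E11.5 the makeup was more even. Wnt2 led in 4 of 5 controls, with 30.6% to 38.3%, and Wnt11 led in control B with 31.6%. In the libraries labelled Wnt5a mutant, Wnt5a led in 3 of 4, and Wnt2 led in mutant A with 34.4%. This order depends on the lengths used, 7010 bases for Wnt5a and 2255 for Wnt2, and the transcripts counted are not named. By CPM without division by length, Wnt5a was the highest member in every E11.5 library. The sum itself ran from 31.1 to 76.8 CPM per kilobase in all libraries other than the epithelium, where it was 78.3 and 169.

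**Figure D2:**
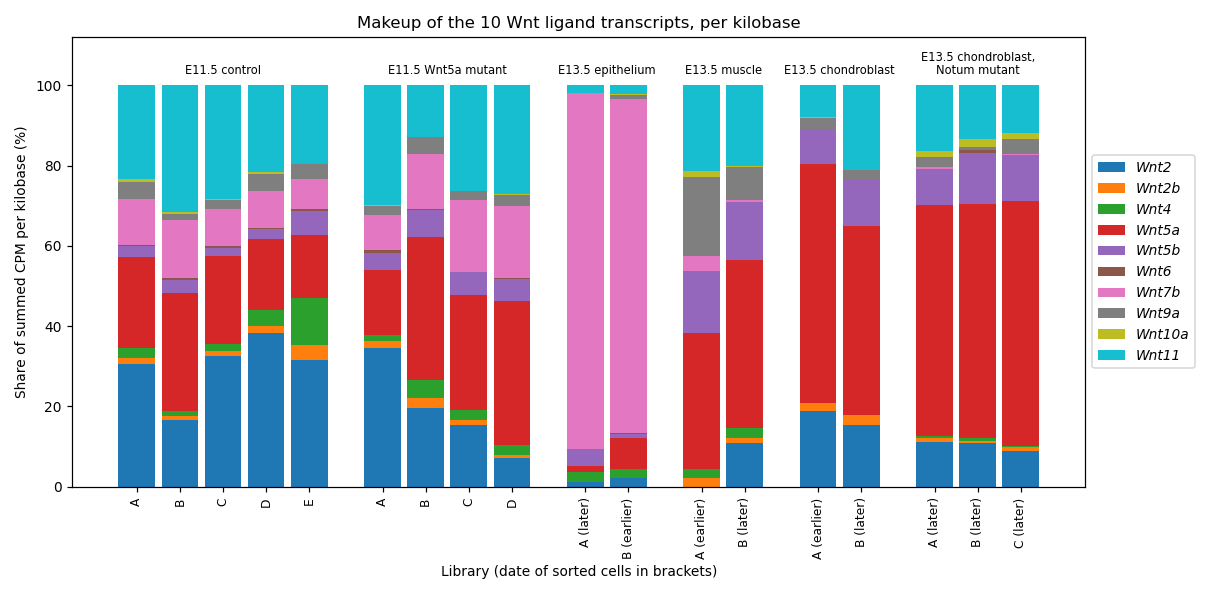
Share of each Wnt ligand gene in the summed level of the 10 members, in CPM per kilobase, as stacked bars for each library. Wnt7b fills 83.2% and 88.7% of the epithelial bars, Wnt5a 47.2% to 60.9% of the chondroblast bars, and Wnt2 the largest part in 4 of 5 E11.5 controls.

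Among the sorted controls, the 3 populations were compared in 1 fit of 13687 genes, in which 8 of the 10 members were tested and Wnt6 and Wnt10a were too low. Between epithelium and chondroblasts 2 of 8 members passed an adjusted p of 0.05, against 2.74% of all genes tested. These were Wnt7b, higher in epithelium, and Wnt5a, lower in epithelium. Between epithelium and muscle 1 of 8 passed, Wnt7b, against 3.58% of all genes. Between muscle and chondroblasts 0 of 8 passed in edgeR, against 0.132% of all genes. At an unadjusted p under 0.05 there were 2 of 8, Wnt4 and Wnt7b, against 5.79% of all genes, and DESeq2 called both, against 1.86%. Both were under 1 CPM in chondroblasts, so they entered the fit only through populations in which they are higher. Among epithelial markers, Cdh1 measured 8.50 and 4.596 CPM in the earlier and later muscle and 0.152 and 0.522 CPM in chondroblasts. Epcam measured 2.02 and 4.47 CPM against 0.657 and 0.224 CPM. Krt19 went the other way, at 1.07 and 0.252 CPM against 7.43 and 3.58 CPM, and the other markers overlapped. The part of epithelial cells in the Wnt4 and Wnt7b levels of muscle was not tested. DESeq2 called 4 of 8 between epithelium and chondroblasts (Wnt2b, Wnt4, Wnt5a and Wnt7b), against 11.4% of all genes, and 3 of 8 between epithelium and muscle (Wnt2b, Wnt5a and Wnt7b), against 13.3%. Wnt2b was under 1 CPM in epithelium and likewise entered through the other populations. At an unadjusted p under 0.05 these were 5 of 8 against 16.4% and 4 of 8 against 18.3%.

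Wnt7b measured 222 CPM in the earlier and 508 CPM in the later epithelium, 4.34 and 1.01 CPM in muscle, and 0.0505 and 0.149 CPM in chondroblasts. Every epithelial library lay above every library of the other populations. The chondroblast values rest on 1 and 2 counts, so the ratio of summed counts is given, which was 3794 for epithelium over chondroblasts (95% exact counting interval 1298 to 18402, from 12435 against 3 counts). The test gave an adjusted p of 0.0084 in edgeR. Over epithelium against muscle the ratio was 126 (102.4 to 157), with a fitted log2 fold change of 7.09 (SE 0.84, adjusted p = 0.0116 in edgeR). These intervals cover counting error alone. The call against chondroblasts was lost without either chondroblast library and with limma's voom, where over all alternatives the adjusted p reached 0.116. Against muscle it was lost with limma's voom alone, at an adjusted p of 0.1001.

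Wnt4, a ligand known from kidney and gonad development, also lay highest in the epithelium. Its values were 7.52 and 18.5 CPM in the earlier and later epithelium, 3.15 and 6.11 CPM in muscle, and 0.152 and 0 CPM in chondroblasts. The 3 populations did not overlap. Epithelium over chondroblasts gave a ratio of summed counts of 135 (95% exact counting interval 45.7 to 655, from 441 against 3 counts), which did not pass in edgeR (adjusted p = 0.111) and passed in DESeq2 (adjusted p = 5.6e-05). Muscle over chondroblasts gave a ratio of 50.7 (17.03 to 249) with an adjusted p of 0.699 in edgeR.

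Wnt5a, the ligand whose gene was deleted at E11.5, measured 235 and 236 CPM in the earlier and later control chondroblasts, 83.6 and 181 CPM in muscle, and 41.9 and 17.5 CPM in epithelium. The populations did not overlap, and the order was the same at both dates. The log2 fold change of epithelium against chondroblasts was −2.96 (SE 0.54, adjusted p = 0.0463 in edgeR), and of epithelium against muscle −2.14 (SE 0.52, adjusted p = 0.0908). With the date as a block the first call was lost, with an adjusted p of 0.0855. It was also lost without the later epithelium, without either muscle library, without either chondroblast library and with the largest table entry alone, and over these the adjusted p reached 0.192.

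Wnt5b, a close relative of Wnt5a that is known in cartilage, measured 11.8 and 19.7 CPM in the earlier and later chondroblasts, 13.01 and 20.97 CPM in muscle, and 2.06 and 16.8 CPM in epithelium. These ranges overlapped throughout, and all 3 populations were higher at the later date. Wnt11, known for cell movements, measured 15.5 and 52.0 CPM in chondroblasts, 26.1 and 42.6 CPM in muscle and 5.70 and 11.3 CPM in epithelium, the earlier date first. The epithelium lay below both other populations, with a log2 fold change against chondroblasts of −1.97 (SE 0.77) that did not pass (adjusted p = 0.275, edgeR).

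Wnt2 and Wnt2b, the mesenchymal ligands that signal through β-catenin, were lowest in epithelium and highest in chondroblasts by their means. Wnt2 measured 24.003 and 24.8 CPM in the earlier and later chondroblasts, 3.69 and 4.16 CPM in epithelium, and 0 and 15.0 CPM in muscle. The earlier muscle library, the one with 617 CPM of skeletal muscle markers, held 0 Wnt2 counts, and the part of those cells was not tested. Wnt2b measured 3.54 and 5.60 CPM in chondroblasts, 2.55 and 2.58 CPM in muscle, and 0.0958 and 0 CPM in epithelium. Chondroblasts over epithelium gave a ratio of summed counts for Wnt2b of 79.2 (95% exact counting interval 21.5 to 660, from 145 against 2 counts), with an adjusted p of 0.167 in edgeR and 0.0087 in DESeq2.

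Wnt9a, known from joint formation, was the member that lay highest in muscle without overlap. It measured 23.2 and 16.7 CPM in the earlier and later muscle, 5.10 and 5.37 CPM in chondroblasts, and 2.83 and 0.0650 CPM in epithelium. Muscle against chondroblasts gave a log2 fold change of 1.94 (SE 1.49) that did not pass (adjusted p = 1.0, edgeR). Epithelium against muscle gave −3.76 (SE 1.61, adjusted p = 0.285). Wnt10a measured at most 1.13 CPM in the sorted controls, and Wnt6 at most 0.287 CPM.

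Groups that did not overlap were common in these small designs and are given against the share over all genes. Between epithelium and chondroblasts 7 of 8 members did not overlap, against 52.3% of all genes. Between muscle and chondroblasts it was 6 of 8 against 40.4%, and between epithelium and muscle 6 of 8 against 51.8%. The median log2 fold change of the 8 members was −1.90 for epithelium against chondroblasts, where it was −0.022 over all genes, and 0.076 for muscle against chondroblasts, where it was −0.0030.

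The genes that release and receive Wnt ligands were counted from lists, each given as genes past the test out of those tested. The lists share genes. Notum is in those of ligand production, secreted inhibitors and β-catenin targets, and Dkk1 is in those of inhibitors and targets. Of all genes, 2.74% passed between epithelium and chondroblasts in edgeR. Between epithelium and chondroblasts, of 14 genes of ligand production 1 was higher in epithelium and 1 lower, of 13 receptor genes 0 passed (2 at an unadjusted p under 0.05, where 16.4% of all genes were, and 2 in DESeq2, where 11.4% were), and of 8 secreted inhibitors 1 was lower. Wls was the higher one, at 486 and 545 CPM in the earlier and later epithelium against 241 and 185 CPM in chondroblasts, with a log2 fold change of 1.29 (SE 0.20, adjusted p = 0.0297, edgeR). Gpc3, a proteoglycan of the cell surface that binds Wnt ligands, was lower in epithelium by a log2 fold change of −1.74 (adjusted p = 0.0197), and Wif1, a secreted inhibitor, by −3.32 (adjusted p = 0.0423). Porcn measured 4.93 CPM in the earlier epithelium and 0 in the later one, and 18.7 and 9.85 CPM in chondroblasts, and did not pass (adjusted p = 0.579).

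The next comparison asked how ligand genes differ when Wnt5a is deleted in the mesenchyme at E11.5. In this fit of 14663 genes 8 of 10 members were tested and 0 passed an adjusted p of 0.05 in edgeR or in DESeq2, against 0.0136% of all genes in edgeR and 0.273% in DESeq2. At an unadjusted p under 0.05 there were 2 of 8 members, Wnt2 and Wnt9a, against 4.58% of all genes. Of the 8 members, 7 had a negative log2 fold change, with a median of −0.72 over the members and −0.019 over all genes. No member was free of overlap between the groups, against 1.19% of all genes.

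Wnt2 measured 38.2, 28.7, 40.0, 62.5 and 40.4 CPM in the E11.5 controls, in the same order, and 31.5, 13.7, 15.3 and 8.06 CPM in the libraries labelled Wnt5a mutant A to D. Mutant A lay above control B, and the other mutants lay below every control. The log2 fold change was −1.29 (SE 0.36, unadjusted p = 0.0041, adjusted p = 0.972 in edgeR). The numbers in the column names pair 4 controls with the 4 mutants, and by these pairs Wnt2 was lower in the mutant in 4 of 4, at 0.281 to 0.504 of the control. The share of all genes lower in every pair was not counted, so counts of pairs here only describe the members. With the pair as a block in a fit of those 8 libraries the log2 fold change was −1.41 (SE 0.19, adjusted p = 0.0751, edgeR), the lowest adjusted p that any alternative gave. Without the block the same 8 libraries gave −1.29 (SE 0.39). Lung mesenchyme markers summed to 42.7 to 107 CPM in controls and 24.4 to 84.1 CPM in mutants, and skeletal muscle markers to 24.4 to 94.4 CPM and 91.2 to 133 CPM. The part of the cells behind either list in the Wnt2 values was not tested.

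Wnt11 measured 44.7, 83.7, 53.3, 54.1 and 38.4 CPM in the controls, and 41.6, 13.7, 40.1 and 46.9 CPM in the libraries labelled mutant. It too was lower in 4 of 4 pairs, at 0.307 to 0.770 of the control, with a blocked log2 fold change of −0.82 (SE 0.23) that did not pass (adjusted p = 0.623, edgeR). Wnt9a measured 8.11, 4.16, 3.94, 9.81 and 7.20 CPM in controls and 2.99, 4.36, 3.25 and 4.58 CPM in mutants. Its log2 fold change was −0.80 (SE 0.34, unadjusted p = 0.0348, adjusted p = 1.0 in edgeR), and it was lower in 3 of 4 pairs.

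**Figure D3:**
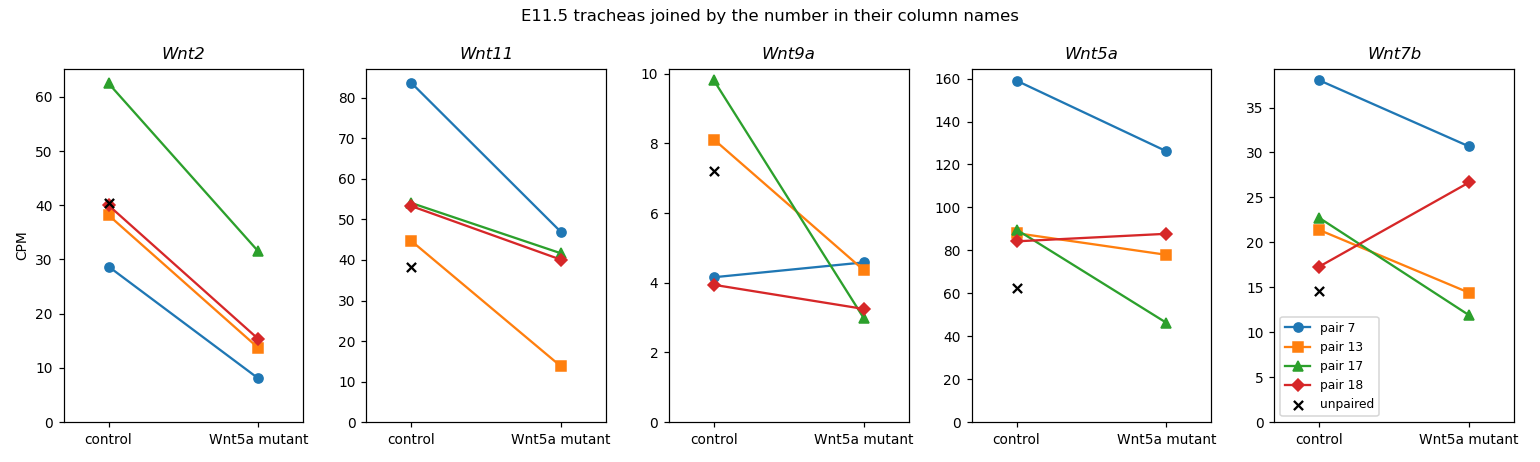
Levels in CPM of 5 Wnt ligand genes in E11.5 controls and libraries labelled Wnt5a mutant, with lines that join libraries of the same column number and a cross for the control without a partner. The 4 lines of Wnt2 and of Wnt11 all fall, from 28.7 to 62.5 CPM down to 8.06 to 31.5 CPM for Wnt2, while those of Wnt7b run both ways.

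The epithelial ligand Wnt7b measured 14.6 to 38.0 CPM in controls, with a median of 21.4, and 11.9, 14.4, 26.7 and 30.7 CPM in the libraries labelled mutant. Its groups overlapped, with a log2 fold change of −0.13 (SE 0.34). Wnt4 measured 6.20, 4.06, 3.94, 12.4 and 27.9 CPM in controls and 2.44, 5.78, 4.84 and 5.11 CPM in mutants. Its 2 highest values were in controls D and E, which also had the highest sums of mesothelial markers, 168 and 176 CPM against at most 100.98 CPM in the other controls and 108 CPM in the mutants, and this was not tested. The log2 fold change of Wnt4 was −1.24 (SE 0.58) in all libraries and −0.54 (SE 0.41) in the 8 paired libraries, which leave out control E.

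Wnt5b was the member with a positive log2 fold change, 0.16 (SE 0.33), with 2.66 to 7.83 CPM in controls and 4.18 to 6.59 CPM in mutants. Wnt2b measured 2.08 to 7.36 CPM in controls and 1.16 to 2.56 CPM in mutants. Wnt10a reached at most 0.898 CPM and Wnt6 at most 0.651 CPM at E11.5, and neither was tested. At these low levels Wnt10a was also lower in 4 of 4 pairs. Of the list genes, 0 of 14 in ligand production, 0 of 15 receptors, 0 of 11 inhibitors and 0 of 11 β-catenin targets passed in edgeR. At an unadjusted p under 0.05 there were 0, 0, 4 and 1, against 4.58% of all genes, and DESeq2 called 1 of the inhibitors, against 0.273%.

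The comparison of Notum mutant with control chondroblasts asked how ligand genes differ where the enzyme that inactivates their products is mutated. It tested 8 of 10 members among 14120 genes, with Wnt6 and Wnt7b too low. In edgeR 0 of 8 passed an adjusted p of 0.05, as did 0% of all genes, and in DESeq2 1 of 8 passed, Wnt10a, against 3.73% of all genes. At an unadjusted p under 0.05 in edgeR there were 4 of 8, against 12.5% of all genes. The groups did not overlap for those 4, Wnt2, Wnt2b, Wnt4 and Wnt10a, against 33.9% of all genes. Wnt4 and Wnt10a were under 1 CPM in the controls and met the filter through the mutants alone. They could enter the test only as genes higher in the mutants, so the filter set their direction.

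Wnt10a, a ligand known from teeth and skin appendages, measured 0.101 and 0 CPM in the earlier and later control chondroblasts and 2.23, 2.82 and 1.66 CPM in the libraries labelled Notum mutant A to C. These mutant values were above those of every other library in the series, where the highest was 1.13 CPM in the earlier muscle. The controls held 2 counts and the mutants 141, a ratio of 37.1 (95% exact counting interval 10.1 to 309). The adjusted p was 0.256 in edgeR and 0.0129 in DESeq2.

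Wnt4 measured 0.152 and 0 CPM in the controls and 1.501, 1.80 and 0.828 CPM in the Notum mutants. The ratio of summed counts was 15.3 (95% exact counting interval 5.05 to 75.4, from 87 against 3 counts), with an adjusted p of 0.325 in edgeR and 0.134 in DESeq2. Wnt4 was highest in epithelium among the sorted controls, and epithelial markers summed to 16.9 to 28.7 CPM in the mutants and 35.8 to 38.3 CPM in the controls, and both ranges cover the whole list of 7 genes. Within it Epcam was at or under 0.924 CPM in all 5 libraries, and Cdh1 measured 0.152 and 0.522 CPM in the controls and 0, 0.0486 and 5.36 CPM in mutants A to C, highest in mutant C. Smooth muscle markers summed to 80.4 to 114 CPM in the mutants and 72.4 and 73.1 CPM in the controls, and their part was not tested.

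Wnt2 and Wnt2b differed the other way. Wnt2 measured 24.003 and 24.8 CPM in the earlier and later controls and 14.6, 14.5 and 8.91 CPM in the Notum mutants, with a log2 fold change of −0.92 (SE 0.29, unadjusted p = 0.0190, adjusted p = 0.325 in edgeR). Wnt2b measured 3.54 and 5.60 CPM in the controls and 1.64, 1.17 and 1.22 CPM in the mutants, with a log2 fold change of −1.74 (SE 0.60, adjusted p = 0.339). The 3 mutants were below the control of the same date for both genes, at a mean of 0.511 of its level for Wnt2 and 0.240 for Wnt2b. The same held for Wnt11, at a mean of 0.500, and for Wnt5b, at 0.712. These ratios rest on 1 control library, and the share of all genes below it was not counted.

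Wnt5a, the leading ligand of chondroblasts, measured 235 and 236 CPM in the controls and 233, 242 and 189 CPM in the Notum mutants. Its log2 fold change was −0.070 (SE 0.13), with an adjusted p of 0.859, and the sign turned with the scaling by library size alone. Wnt5b measured 12.1, 17.9 and 12.1 CPM in the mutants against 11.8 and 19.7 CPM, and Wnt9a 4.91, 1.60 and 5.41 CPM against 5.10 and 5.37 CPM. Wnt11 measured 32.5, 27.5 and 18.1 CPM in the mutants, between the 15.5 CPM of the earlier and the 52.0 CPM of the later control.

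The result of this comparison changed with the control library used. The earlier control carried the 36278 CPM of blood and immune markers, the later one 5213 CPM, and the mutants 4031 to 5713 CPM. With the later control alone, where its spread is assumed to match that of the mutants, 2 members passed in edgeR, Wnt10a (adjusted p = 0.0244) and Wnt4 (adjusted p = 0.0439), against 17.5% of all genes. Wnt2b did not (adjusted p = 0.0515). With the earlier control alone 0 members and 106 genes passed in edgeR. The values of Wnt10a and Wnt4 in the later control were 0 counts each, and both genes entered these fits through the mutants alone.

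**Figure D4:**
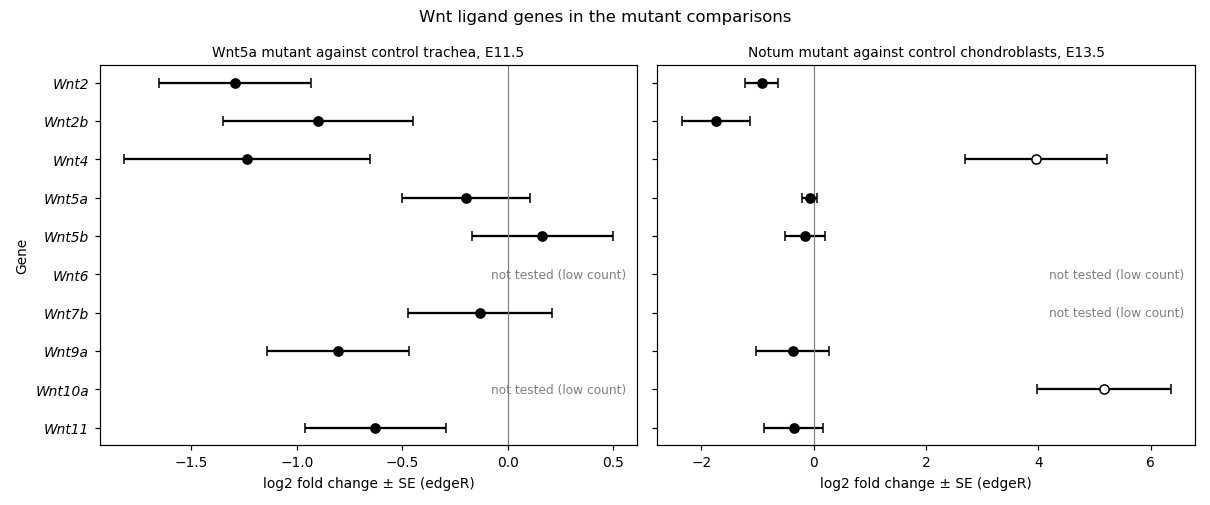
Log2 fold change with its SE for each member in the E11.5 Wnt5a comparison and the E13.5 Notum comparison, from edgeR, with open circles for genes whose controls hold 3 counts or fewer. Wnt2 lies at −1.29 and −0.92 in the 2 panels, and Wnt4 and Wnt10a lie on the positive side in the Notum panel, where the fitted size depends on few counts.

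Control chondroblasts at E13.5 were also compared with control tracheas at E11.5. Age, sorting, cell make-up (whole trachea against 1 sorted gate) and genotype differ together here and cannot be told apart. Of 8 members tested 4 passed an adjusted p of 0.05, against 12.5% of 14728 genes, and 5 of 8 did not overlap, against 36.5%. At an unadjusted p under 0.05 there were 5 of 8, against 30.2%, and DESeq2 called 4, against 23.7%. Wnt5a and Wnt5b were higher in chondroblasts. Wnt5a measured 62.5 to 159 CPM at E11.5, with a median of 88.0, and 235 and 236 CPM in chondroblasts (log2 fold change 1.29, SE 0.29, adjusted p = 0.0242 in edgeR). Wnt5b measured 2.66 to 7.83 CPM at E11.5 and 11.8 and 19.7 CPM in chondroblasts (log2 fold change 1.70, SE 0.43, adjusted p = 0.0373).

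Wnt4 and Wnt7b were lower in chondroblasts than at E11.5, and both met the filter only through the E11.5 libraries. Wnt7b measured 14.6 to 38.0 CPM in the E11.5 controls, and E11.5 over chondroblasts gave a ratio of summed counts of 269.9 (95% exact counting interval 92.2 to 1309.8, adjusted p = 0.00061 in edgeR). For Wnt4 the ratio was 89.1 (30.3 to 433, adjusted p = 0.0163). Epithelial markers summed to 212 to 306 CPM in the E11.5 controls and 35.8 to 38.3 CPM in chondroblasts. Wnt2 went from 28.7 to 62.5 CPM at E11.5 to 24.003 and 24.8 CPM without overlap, and did not pass (log2 fold change −0.78, SE 0.30, adjusted p = 0.116). Wnt7b passed with each library left out in turn, and Wnt4 failed without the later chondroblast library (adjusted p = 0.0848) and with limma's voom (0.145). Wnt5a and Wnt5b did not pass without E11.5 control A, C or D or without the later chondroblast library, and Wnt5a also not without the earlier one. Both were lost with the largest table entry alone, and Wnt5b with all 18 libraries in 1 fit, so each passed under 9 of 15 alternatives, with adjusted p of up to 0.110 for Wnt5a and 0.190 for Wnt5b.

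In this comparison 12.5% of all genes passed in edgeR, and the list genes are given against that share. In ligand production 4 of 14 were higher in chondroblasts, Notum among them (log2 fold change 3.17, adjusted p = 0.0413, edgeR). Of 16 receptors 2 were higher, which is near the share of all genes. They were Fzd9 (3.12, adjusted p = 0.0093, edgeR) and Ror1, a receptor of Wnt5a (1.68, adjusted p = 0.0082). Of 11 β-catenin targets 3 were higher and 1 lower. Notum is counted in 3 of these lists and Dkk1 in 2, so the counts are not separate. Of 10 secreted inhibitors 3 were higher and 1 lower, with Wif1 at a log2 fold change of 6.49 (adjusted p = 9.0e-06) and Dkk1 at −4.92 (adjusted p = 0.0220).

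Across the 6 groups, the order of mean levels left few neighbours apart. For Wnt7b the epithelium stood clear of the E11.5 controls, the E11.5 mutants of the muscle, and the muscle of the Notum mutants, and the other neighbours overlapped. For Wnt5a the gaps lay between Notum mutants and muscle and between E11.5 mutants and epithelium. For Wnt2 the E11.5 controls stood clear of the control chondroblasts and no other neighbours did. For Wnt9a muscle stood clear at the top and epithelium at the bottom, and for Wnt10a the Notum mutants at the top. Neighbours of Wnt5b and Wnt6 overlapped at every step.

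Genes whose log2 CPM ran most like that of a member over the 18 libraries were listed as a description, by Pearson's r. For Wnt7b these were Mal2, Percc1 and Epb41l5 (0.971, 0.967 and 0.964). For Wnt5a they were Angptl2, Sned1 and St6gal1 (0.952, 0.948 and 0.947), and for Wnt9a Pcsk5, Vwa1 and Ehbp1l1 (0.945, 0.939 and 0.934). For Wnt4 they were Ankrd33b, Rhbdl2 and Ptpn13 (0.923, 0.912 and 0.891), and for Wnt5b Chsy1, 2700081O15Rik and Cask (0.914, 0.913 and 0.908). For Wnt2 they were Crmp1, Ints14 and Kcnk5 (0.900, 0.899 and 0.899), and for Wnt11 Limd2, Bves and Gm266 (0.884, 0.859 and 0.847). The points share libraries and fall into 6 groups, so they describe likeness across groups.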

How the data were processed

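SMART-Seq v4 cDNA of the 18 libraries was tagged with Nextera XT, without molecular identifiers or strand marks. The authors deposited expected counts, estimated counts that need not be whole, in 1 table of 47248 entries and 22 columns of values, without normalization. The submitters' processing notes name Partek, limma and mm10, and the aligner and counting tool are not given in the sources used here. Columns were assigned to groups by their names, which left out 4 of the 22 as unmatched, and 2 of the names used do not spell out the GFP gate in full. The labels list 3 samples of each sorted control and 4 Notum mutants, where 2 and 3 libraries were used. Replicates are separate samples per the labels, so p-values measure the spread between these samples, which may be in part technical.

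CPM levels use TMM factors from the genes passing the filter over all 18 libraries. Entries of a symbol were summed and rounded, which hides differences between transcripts. A gene entered a test if over 50% of the libraries of at least 1 group of the fit held 1 CPM or more. It was tested with edgeR 4.0.16 (TMM, quasi-likelihood test, 2-sided, R 4.3.3). Benjamini-Hochberg adjustment ran over all genes tested, with 6 comparisons in all. Alternatives were DESeq2 1.42.0, limma 3.58.1 and other scalings, filters and sets of libraries. The fitting code was tested on simulated data. The members and gene lists were chosen with earlier results of these data known. All members were named, with genes of like pattern where a group mean reached 10 CPM, and of the pathway lists the targeted gene, Wls, Porcn and genes past the test. No libraries of 1 group were duplicates (lowest chi-square per gene, 19.9). At E11.5 the column names of 4 controls and the 4 mutants share numbers. The deviations of same-numbered libraries from their group means correlated over genes at 0.101 to 0.529. Between a control and a mutant with different numbers the range was −0.322 to 0.218, so only the pair numbered 7, at 0.529, stood clear of it. The pairs by name were used as a block in an alternative fit.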

Additional observations from a re-analysis of the deposited data

Results flagged for a closer look

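Each Wnt gene with a level of 1 CPM or more was looked at in each E11.5 group, and in 2 of these 18 cases a library lay far from the others of its group, which chance gives in about 1 in 20. Wnt5a in E11.5 control B was 159 CPM, where the next control was at 89.6 CPM and the lowest at 62.5 CPM. The same library was also highest among the controls for Wnt7b and Wnt11, and its partner by column number was the highest of the mutants for Wnt5a at 126 CPM. Wnt8b, which is not among the 10 members, was 2.82 CPM in control E, the library with the fewest counts, and at most 0.213 CPM in the other controls.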

How the results depend on the processing

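Of the values of single members under other settings, 664 kept their direction and side of the threshold, 23 came to pass it, 25 no longer passed and 22 changed sign. The causes were not tested. Of counts of members past an adjusted p of 0.05, 67 stayed within 1.5 times and 25 moved. The share of all genes called in the same fit stands in parentheses. DESeq2 called 1 member in the Notum comparison (3.73%), 4 between epithelium and chondroblasts (11.4%), 2 between muscle and chondroblasts (1.86%) and 3 between epithelium and muscle (13.3%). With limma's voom these were 1 between epithelium and chondroblasts (3.53%) and 0 between epithelium and muscle (4.58%). All 18 libraries in 1 fit, with 9 members tested, gave 5 between epithelium and chondroblasts (19.3%), 2 between muscle and chondroblasts (3.47%) and 5 between epithelium and muscle (23.3%). With no filter there was 1 between muscle and chondroblasts (1.51%) and 2 between epithelium and muscle (8.05%). The largest table entry alone gave 1 between epithelium and chondroblasts (1.97%) and 2 between chondroblasts and E11.5 tracheas (9.49%). With the date as a replicate block 1 was called between epithelium and chondroblasts (2.18%).

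Leaving out 1 library at a time gave 0 to 2 members in the Notum comparison (0% to 17.5%), 0 to 2 between epithelium and chondroblasts (0.139% to 7.54%), 1 to 3 between epithelium and muscle (1.14% to 8.62%) and 1 to 4 between chondroblasts and E11.5 tracheas (5.51% to 22.4%). Among log2 fold changes whose sign turned, leaving out a library gave −0.43 to 0.052 for Wnt5a and −0.35 to 0.13 for Wnt7b in the Wnt5a comparison. In the Notum comparison it gave −0.13 to 0.031 for Wnt5a, −0.48 to 0.26 for Wnt5b, −0.66 to 0.0035 for Wnt9a and −0.99 to 0.76 for Wnt11. It gave −2.91 to 0.089 for Wnt5b between epithelium and chondroblasts, −0.27 to 0.54 for Wnt5b and −0.58 to 1.17 for Wnt11 between muscle and chondroblasts, −1.92 to 9.10 for Wnt2 between epithelium and muscle, and −0.039 to 0.70 for Wnt2b between chondroblasts and E11.5 tracheas. In the Notum comparison Wnt5a turned to 0.015 with library size alone and to 0.18 with the largest entry, and Wnt11 to 0.018 with voom and 0.93 with the largest entry. Wnt2 between epithelium and muscle turned to 2.60 with voom and 0.048 with the date as a block.

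Pairing by column number called 0 members at E11.5, with Wnt2 at −1.41, and 3 genes in all. The same 8 libraries without the block, an alternative chosen after seeing the data, gave 2 genes. No paired analysis was possible for the Notum comparison or for chondroblasts against E11.5 because the mutants share 1 date and those groups share no numbers. Wnt6 held at most 14 counts in any library and was tested only with no filter.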

Other observations

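Several members have more than 1 entry in the table, 2 for Wnt5a, 3 for Wnt5b and Wnt7b and 4 for Wnt11, with no transcript named. The first entry of Wnt5a held 16.9% to 35.8% of its counts in the E11.5 controls and 5.5% to 72.9% in the libraries labelled Wnt5a mutant. In control chondroblasts it held 52.4% in the earlier and 18.1% in the later library, although the summed level was 235 and 236 CPM.

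Of the β-catenin targets, 10 were tested in Notum mutant chondroblasts and 0 passed in edgeR, 5 had an unadjusted p under 0.05 (12.5% of all genes) and DESeq2 called 4 (3.73% of all genes), with a median log2 fold change of 1.23 against 0.019 over all genes. This list includes Notum, the mutated gene. Axin2 and Lef1, named here after their values were seen, measured 9.92, 10.4 and 7.89 CPM and 106, 99.7 and 91.4 CPM in the mutants. The earlier and later controls held 3.49 and 4.25 CPM of Axin2 and 28.7 and 35.1 CPM of Lef1.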
